A study of Mus musculus with 38 samples.

Results

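The genes described here carry out the oxidation of fatty acids in mouse liver, or are known targets of the nuclear receptor PPAR-alpha. In all, 36 were chosen by name. The choice was made with earlier results of these data known, so the shares below describe these genes and are not an independent test. A gene was represented by the probe set (a group of short probes on the array that report 1 transcript) annotated to its symbol, and where several were annotated, by the one with the highest mean over all arrays. Of the 36 genes, 35 had such a probe set, out of 18194 genes in all, and Acsl1 had none listed. The livers came from male mice of CD-1, an outbred stock, aged 6 to 8 weeks, in a study that set 2 triazole fungicides (conazoles) apart from phenobarbital, a sedative and a long-studied inducer of liver enzymes. In 1 experiment, 3 mice a group received control feed, propiconazole at 2500 ppm or triadimefon at 1800 ppm (spelled tridimefon in the labels) for 4 or 30 days. In the other, 5 mice a group received control feed or phenobarbital at 850 ppm for the same periods. The mean daily intakes were 349.6 ± 46.7 mg/kg of propiconazole, 257.1 ± 33.5 mg/kg of triadimefon and 97.2 ± 5.9 mg/kg of phenobarbital. Each of the 38 arrays held 1 biological replicate.

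Fatty acids enter the mitochondrion as carnitine esters, made by Cpt1a and turned back into acyl-CoA by Cpt2, and are then shortened in repeated rounds by acyl-CoA dehydrogenases, hydratases, hydroxyacyl-CoA dehydrogenases and thiolases, with electrons passed on through the flavoprotein chain of Etfa, Etfb and Etfdh. Very long and branched chains are shortened first in peroxisomes by a separate set of enzymes. PPAR-alpha, activated by fatty acids and by fibrate drugs, raises transcription of many genes of both pathways in liver, above all in fasting, as a heterodimer with RXR that binds direct repeats of a half-site with 1 base between them.

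The study's question was whether the conazoles act on liver transcripts differently from phenobarbital. Levels are given as log2(intensity + 16) after quantile normalisation, so that 4 is the lowest possible value, and a fold change is on that scale, which understates changes of dim genes. A level counted as above background when it was over 6.13, the level under which the mean of 95% of 39 olfactory receptor genes fell. By that limit 32 of the 35 measured genes had a mean above background. On all 38 arrays 29 were above it, and Acot2 was below it on all 38. Of all genes with a probe set, 9314 of 18194 had a mean above background, so the shares of all genes include many dim ones. Genes passed the test at a Benjamini-Hochberg adjusted p under 0.05 over all 17729 genes tested, from a limma fit of all 38 arrays. The p-values measure the spread between animals of 1 stock. In whole liver, fewer cells of a type and less RNA per cell cannot be told apart.

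All 9 measured hepatocyte markers were above background. Median intensity as deposited lay between 12.5 and 36.1. Replicate 2 of the day 4 propiconazole group stood apart: the 3′ probe set of Gapdh exceeded the 5′ probe set by 6.39 on the log2 scale, against -0.37 to 0.22 on the other 37 arrays. The difference between the 3′ and 5′ probe sets of a gene is a usual quality measure of labelled RNA. Results resting on that array are given with and without it. The 3′ excess of Actb was 0.62 to 1.84 on the day 4 conazole experiment arrays, controls included, and 0.28 to 0.47 on all others.

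RefSeq promoter windows (GRCm38.p6, 250 bases before to 50 after the start) were found for 31 of the 36 genes. Fabp1, Cpt1a, Acadvl and Pex11a are shown because each fell in the day 4 propiconazole livers and each is a known target of PPAR-alpha or a step of the pathway, and because they differ in the letters searched. Both strands were searched for the half-site AGGTCA and for a direct repeat of 2 copies of AGGNCA with 1 base of any kind (N) between them. Capitals mark the matches, which read TGACCT where the match is on the opposite strand.
Fabp1, chr6:71199629-71199928, plus strand: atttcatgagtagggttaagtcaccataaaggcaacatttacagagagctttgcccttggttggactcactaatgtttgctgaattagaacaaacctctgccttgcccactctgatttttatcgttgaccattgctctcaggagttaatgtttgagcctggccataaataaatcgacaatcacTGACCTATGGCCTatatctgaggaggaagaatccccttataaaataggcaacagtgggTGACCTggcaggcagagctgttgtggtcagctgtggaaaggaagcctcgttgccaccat
Cpt1a, chr19:3323051-3323350, plus strand: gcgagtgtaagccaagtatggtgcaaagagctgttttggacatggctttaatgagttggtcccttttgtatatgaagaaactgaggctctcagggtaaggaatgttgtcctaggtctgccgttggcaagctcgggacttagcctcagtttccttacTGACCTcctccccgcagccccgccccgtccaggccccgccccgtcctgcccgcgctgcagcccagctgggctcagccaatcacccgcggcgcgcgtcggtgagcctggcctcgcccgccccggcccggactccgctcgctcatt
Acadvl, chr11:70015379-70015678, minus strand: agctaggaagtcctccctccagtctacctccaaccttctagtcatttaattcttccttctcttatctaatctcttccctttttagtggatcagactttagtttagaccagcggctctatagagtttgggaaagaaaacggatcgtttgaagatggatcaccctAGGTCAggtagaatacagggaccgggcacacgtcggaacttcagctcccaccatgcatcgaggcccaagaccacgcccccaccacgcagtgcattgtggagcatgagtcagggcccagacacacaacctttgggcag
Pex11a, chr7:79743082-79743381, minus strand: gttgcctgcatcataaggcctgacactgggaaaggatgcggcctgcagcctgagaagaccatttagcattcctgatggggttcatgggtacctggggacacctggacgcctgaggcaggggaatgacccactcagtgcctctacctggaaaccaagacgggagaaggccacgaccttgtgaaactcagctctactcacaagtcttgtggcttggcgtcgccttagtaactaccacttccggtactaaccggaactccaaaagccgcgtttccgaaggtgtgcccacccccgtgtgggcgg
The Fabp1 window held the repeat, whose first base lay at -67 from the start and which overlaps a half-site, and a second half-site at -9. Cpt1a and Acadvl held 1 half-site each, at -94 and -87, and Pex11a held neither. Across the genes with a window, the half-site occurred in 8 of 34 windows (23.5%), belonging to 7 genes, against 16.3% of all 32851 windows. The repeat occurred in 1 of the 34 (2.94%), against 0.381% of all windows. These are letter matches only.

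The strongest movement of these genes was a fall in the livers of mice fed propiconazole for 4 days. Of 35 measured genes, 12 passed the test as lower and 0 as higher. That was 34.3% of them, against 6.53% of all genes lower and 7.36% higher. The fall took in mitochondrial steps (Acadvl, Acads, Hadha, Acaa2, Decr1), peroxisomal ones (Acaa1b, Eci2, Decr2, Pex11a), the entry step Cpt1a, the electron carrier Etfdh and the fatty acid binding protein Fabp1. The estimate was below 0 for 33 of the 35, with a median change of -0.36, against 0.03 over all genes. Treated and control arrays did not overlap for 18 of the 35, each lower (51.4%, against 6.85% of all genes). The number depended on scaling. As deposited 22 were wholly lower (against 16.5% of all genes), and with each array scaled to a common 75th percentile 10 were (against 5.88%).

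**Figure D1:**
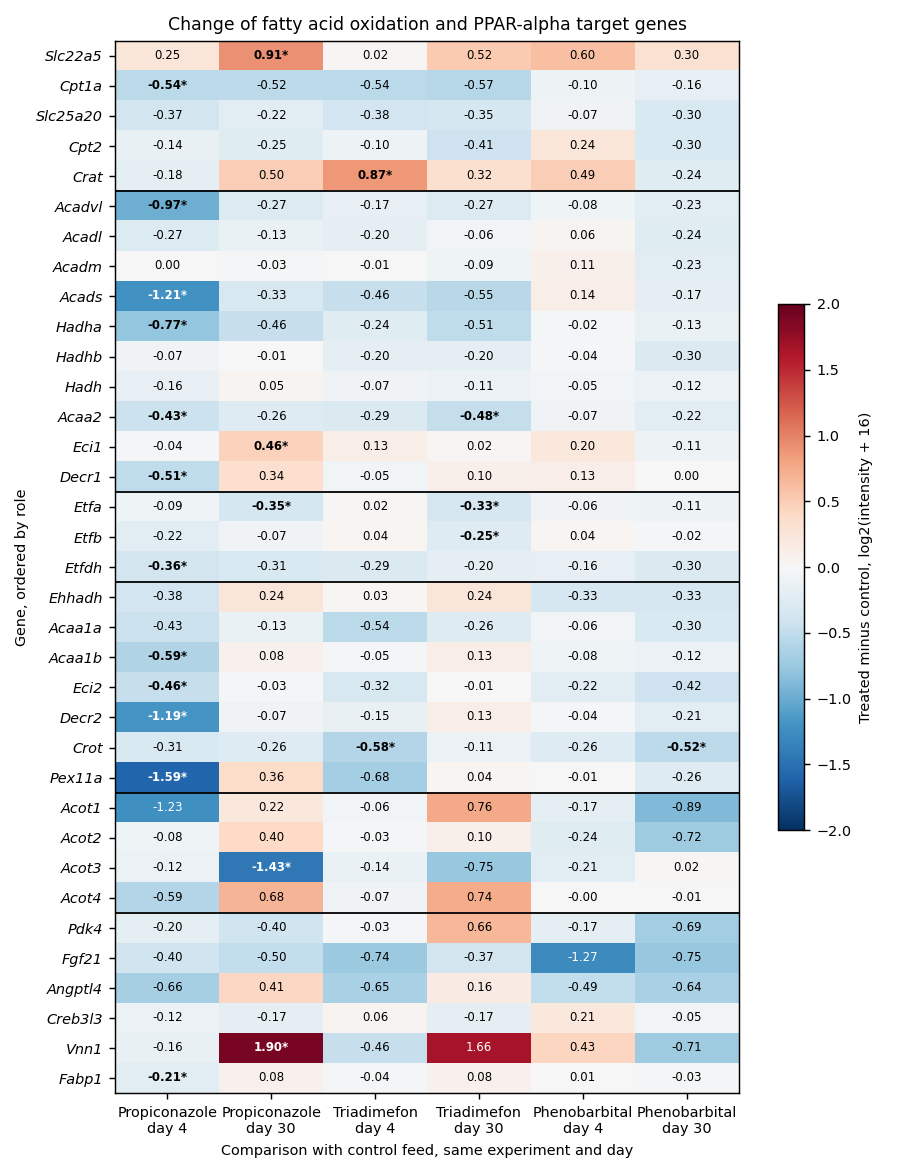
Each cell gives treated minus control on the log2(intensity + 16) scale for 1 of 35 genes (rows, ordered by role, with lines between roles) in 1 of 6 comparisons (columns). Blue is lower, red is higher, and bold values with an asterisk passed the test at an adjusted p under 0.05. Day 4 propiconazole has 12 such cells and day 4 phenobarbital has 0.

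Among the mitochondrial enzymes Acads, the short-chain acyl-CoA dehydrogenase, gave 9.58, 7.80 and 9.74 in the 3 propiconazole livers and 10.45, 10.22 and 10.07 in the controls. It fell by 1.21 ± 0.24 (SE; 2.31-fold; adjusted p = 0.00158). Every treated liver was below every control, and replicate 2 was the lowest by far. Acadvl, which opens the spiral for very long chains, gave 11.31, 9.62 and 11.61 against 11.97, 11.68 and 11.80. Its change was -0.97 ± 0.24 (adjusted p = 0.00639), and again replicate 2 lay well below the other treated livers. The thiolase Acaa2, which cuts off acetyl-CoA at the end of each round, gave 11.94, 12.28 and 12.51 against 12.74, 12.63 and 12.67. All 3 treated livers lay below the controls, which were more tightly grouped, with a change of -0.43 ± 0.10 (adjusted p = 0.00315). Decr1, the reductase that lets polyunsaturated chains through, gave 10.86, 10.66 and 11.12 against 11.39, 11.29 and 11.47, a change of -0.51 ± 0.12 (adjusted p = 0.00563) with no overlap. The other Decr1 probe set, also above background, changed by only -0.04. With the mean of all Decr1 probe sets the gene did not pass.

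Hadha, the alpha subunit of the trifunctional protein, gave 10.84, 9.29 and 11.03 against 11.06, 11.31 and 11.10, a change of -0.77 ± 0.21 (adjusted p = 0.0159). Its partner subunit Hadhb gave 10.66, 11.29 and 10.69 against 10.93, 10.98 and 10.95, so that replicate 2 was the highest of the 6 arrays for Hadhb and the lowest for Hadha. The other mitochondrial members did not pass the test, with changes of -0.27 to 0.00. Cpt1a, the enzyme that controls entry of fatty acids into mitochondria, gave 10.69, 10.18 and 10.36 against 10.85, 10.96 and 11.03, a change of -0.54 ± 0.18 (adjusted p = 0.0405). All 3 treated livers lay below the controls. Etfdh, which hands the electrons to ubiquinone, changed by -0.36 ± 0.11 (adjusted p = 0.0278).

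Of the 7 peroxisomal genes 4 fell and 3 did not pass the test, and all 7 estimates were below 0. Pex11a, which promotes division of peroxisomes, had the largest change of all 35, with 9.52, 6.99 and 9.64 in the treated livers and 10.61, 9.95 and 10.34 in the controls. It was 3.0-fold lower (change -1.59 ± 0.35, adjusted p = 0.00310). No treated liver reached the lowest control. The other Pex11a probe set, also above background, changed by -0.35, and the mean of both by -0.97, so the size depends on the probe set. Decr2, the peroxisomal counterpart of Decr1, gave 10.03, 7.33 and 10.16 against 10.36, 10.28 and 10.44, a change of -1.19 ± 0.35 (adjusted p = 0.0238), most of it from replicate 2. The peroxisomal thiolase Acaa1b gave 12.44, 12.28 and 13.01 against 13.26, 13.02 and 13.23, a change of -0.59 ± 0.12 (adjusted p = 0.00155). Acaa1a and Acaa1b are near-identical copies that share 2 further probe sets, so the split between them is uncertain. Those 2 shared probe sets changed by -1.19 and -0.46, and by -0.30 and -0.20 without replicate 2. Eci2, an enoyl-CoA isomerase, gave 10.54, 10.95 and 10.81 against 11.40, 11.19 and 11.09, a change of -0.46 ± 0.14 (adjusted p = 0.0258).

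Outside the oxidation steps Fabp1, the abundant fatty acid carrier of hepatocytes, gave 13.41, 13.22 and 13.57 against 13.59, 13.59 and 13.66. Its change was -0.21 ± 0.06 (adjusted p = 0.0189), the smallest of the 12. Fabp1 ranked between 1 and 46 among all probe sets on every array, where quantile normalisation leaves few distinct values. The thioesterase Acot1 had the second largest estimate, -1.23 ± 0.51, from 5.89, 5.99 and 7.13 against 7.62, 7.86 and 7.21, and did not pass the test (adjusted p = 0.104). The 4 thioesterases Acot1 to Acot4 are close copies, and reads of their probe sets may be shared.

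**Figure D2:**
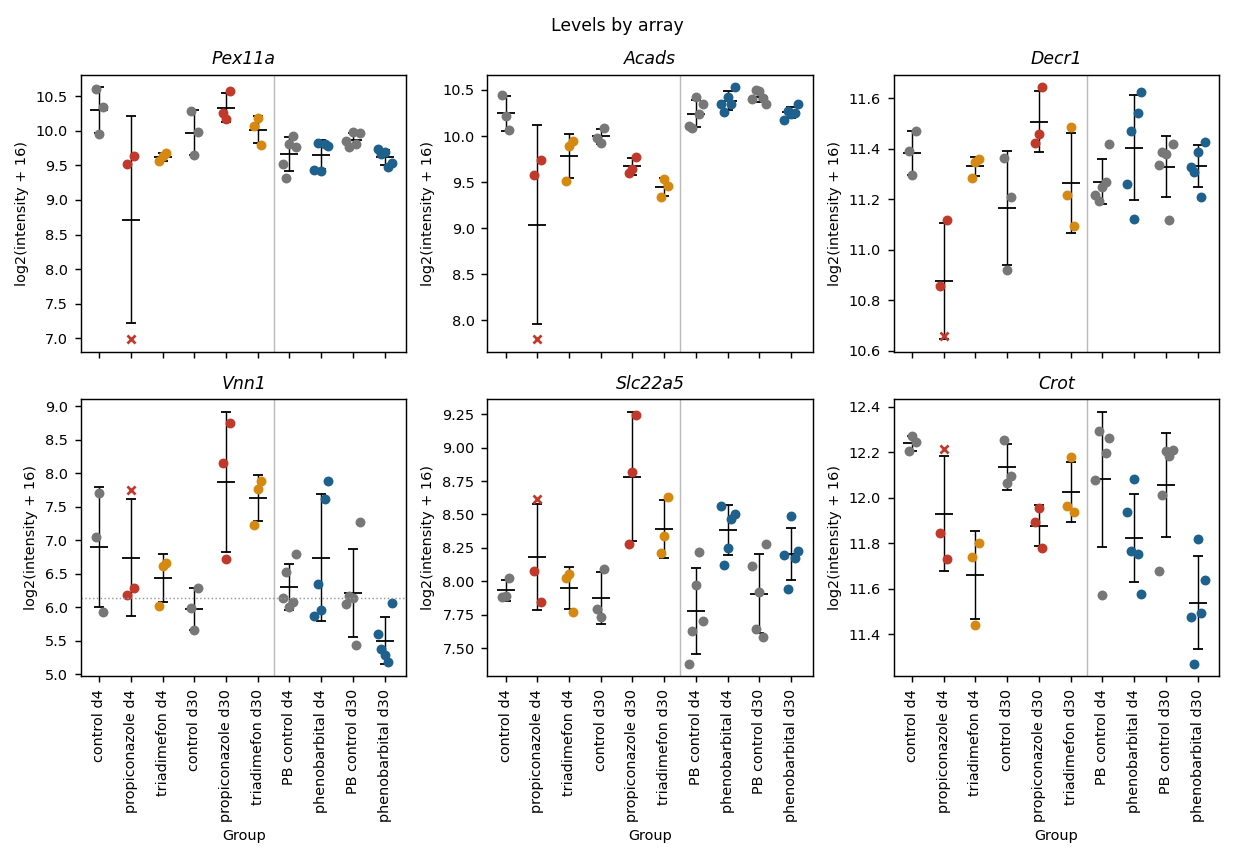
Points are single arrays for 6 genes, with levels as log2(intensity + 16) on the vertical axis and the 10 groups on the horizontal axis, and black bars give the group mean ± SD. Grey is control feed, red propiconazole, orange triadimefon and blue phenobarbital (PB), the cross is day 4 propiconazole replicate 2, and the dotted line in the Vnn1 panel is background at 6.13. Pex11a and Acads dip in day 4 propiconazole, where the cross lies at 6.99 and 7.80.

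Without replicate 2, 11 of the 35 genes were lower (31.4%, against 4.87% of all genes) and 0 higher (4.42% of all genes), and the median change was -0.36. Of these, 8 were among the 12: Acadvl, Acads, Acaa2, Decr1, Etfdh, Acaa1b, Eci2 and Pex11a. Their sizes shrank for 3 of the largest, to -0.72 ± 0.18 for Pex11a (adjusted p = 0.0105), -0.58 ± 0.11 for Acads (adjusted p = 0.00124) and -0.36 ± 0.09 for Acadvl (adjusted p = 0.0114). Cpt1a (-0.43, adjusted p = 0.182), Hadha (-0.22, adjusted p = 0.125), Decr2 (-0.27, adjusted p = 0.260) and Fabp1 (-0.12, adjusted p = 0.162) no longer passed. The carnitine-acylcarnitine carrier Slc25a20 (-0.53, adjusted p = 0.00986), Hadhb (-0.28, adjusted p = 0.0474) and Acaa1a (-0.76, adjusted p = 0.0105) passed in their place. The Acaa1a change depended on the probe set. With all arrays it was -0.43, and that of its other probe set, also above background, was -0.03.

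**Figure D3:**
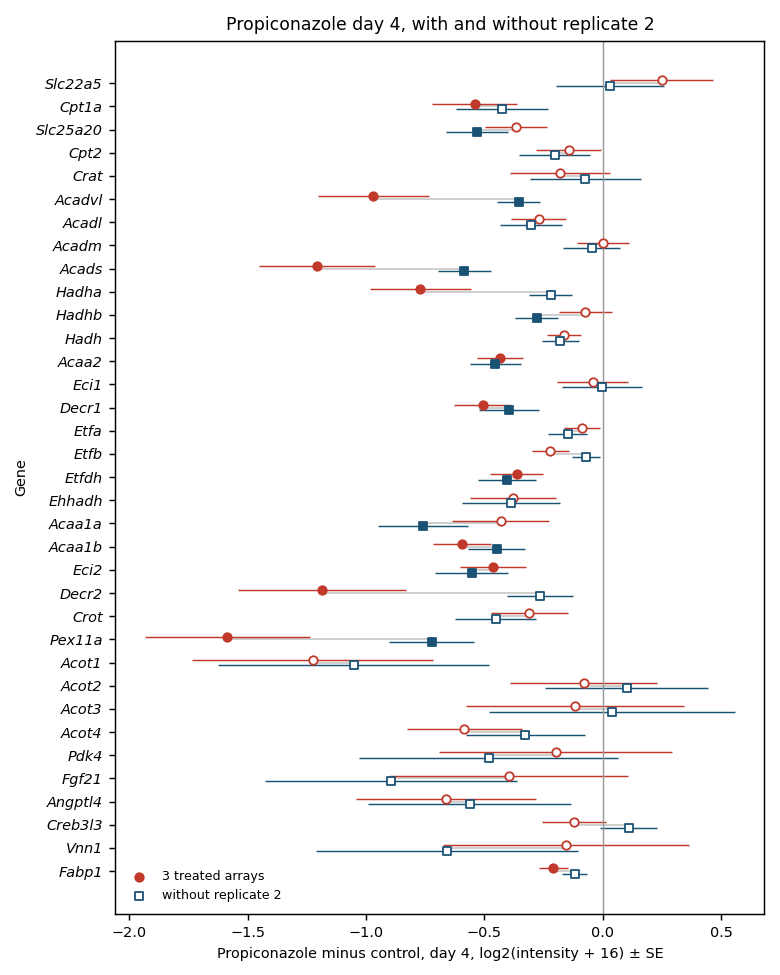
Red circles give propiconazole minus control on day 4 from all 3 treated livers and blue squares the same without replicate 2, on the log2(intensity + 16) scale with bars of ± 1 SE, for the 35 genes. Filled symbols passed the test: 12 circles and 11 squares, every one below 0. Grey lines join the 2 estimates, and they are longest for Decr2, Pex11a, Acads and Acadvl.

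The calls rest on a spread shared with the other groups. With a fit on the 6 arrays compared, or on the conazole experiment alone, 0 of the 35 passed in limma (0.0349% and 1.28% of all genes did). In the fit of all 38 arrays 20 had an unadjusted p under 0.05. With each array scaled to a common 75th percentile 28 of 35 estimates were below 0 and 5 genes passed (14.3%, against 13.2% of all genes in either direction), and with values as deposited, where the median of all genes was -0.16, 35 were below 0 and 20 passed (57.1%, against 14.6%). Leaving out control replicate 2 gave 7 passing genes, with the share of all genes not given.

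The gene of PPAR-alpha and those of its coactivators Ppargc1a and Ppargc1b fell in the same livers. Ppara gave 8.57, 7.21 and 9.38 against 10.67, 10.69 and 10.83, a change of -2.34 ± 0.33 (adjusted p = 3.07e-05), and without replicate 2 a change of -1.76 ± 0.28 (adjusted p = 0.000224). All treated livers lay below all controls. The coactivator gene Ppargc1b gave 6.78, 4.13 and 4.00 against 8.41, 8.16 and 8.84, with the treated livers at or near the lowest possible value in 2 of 3, so that no size is given (adjusted p = 4.17e-06, and 9.04e-05 without replicate 2). Its relative Ppargc1a, which drives oxidative genes in fasting, changed by -1.36 ± 0.30 (adjusted p = 0.00315), and without replicate 2 by -1.34 ± 0.34 (adjusted p = 0.0122). Creb3l3, a transcription factor of the fasted liver, gave 11.68, 11.06 and 11.82 against 11.60, 11.62 and 11.71 and did not pass (adjusted p = 0.611). In all, 9 of 30 measured genes of a second list of PPAR-alpha pathway genes were lower and 0 higher, beside 6.53% and 7.36% of all genes, and 5 were lower without replicate 2, beside 4.87%. The desaturase Fads2 (-1.93) did not pass without that array (-0.34, adjusted p = 0.0674), since replicate 2 alone read 5.86.

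Of 3 measured genes of ketone body synthesis, which uses the acetyl-CoA of oxidation, Acat1 changed by -0.72 ± 0.17 (adjusted p = 0.00425) and Bdh1 by -0.68 ± 0.13 (adjusted p = 0.00118). Of 12 genes of peroxisome biogenesis, 6 were lower and 3 higher (again beside 6.53% and 7.36% of all genes), led by Pex6 (-1.99), Pex11g (-1.20), Pex16 (-0.72) and Pex26 (-0.58). Without replicate 2 only Pex5 passed (-0.25, adjusted p = 0.0479). Of the ketone genes Bdh1 passed then (-0.51, adjusted p = 0.0147).

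Summed marker intensities of 3 lists did not overlap between these groups. The 9 hepatocyte markers summed to 72684 to 78858 in the treated livers and 80720 to 81472 in the controls, with all 9 above background and 1 of 9 lower by the test. The 5 biliary markers summed to 495 to 578 against 346 to 410, with 2 of 5 above background and 2 of 5 higher. The 6 neutrophil markers summed to 560 to 6866 against 353 to 552, with 3 of 6 above background, and S100a8 gave 11.28, 12.54 and 6.56 against 5.60, 5.71 and 4.86 (adjusted p = 0.0175, and 0.126 without replicate 2). The 8 stellate cell markers overlapped, at 1637 to 3478 against 2760 to 4363, with 5 of 8 above background and 1 of 8 lower. Their part in the results was not tested.

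After 30 days of propiconazole the genes of the list that passed the test went both ways. Of the 35 genes 3 were higher (8.57%, against 5.29% of all genes) and 2 lower (5.71%, against 5.53%), shares near the background. The genes that rose were Vnn1, Slc22a5 and Eci1, and those that fell were Etfa and Acot3. The median change was -0.07, with 21 of 35 estimates below 0.

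Vnn1, a pantetheinase and a known PPAR-alpha target, gave 8.15, 6.71 and 8.74 in the treated livers and 5.99, 5.65 and 6.28 in the controls. It rose (change 1.90 ± 0.52, adjusted p = 0.0163), with all 3 treated livers above background and 1 of 3 controls, so no fold is given. The change was 2.12 with a pseudocount of 4 and 1.38 with one of 64, and with the mean of all Vnn1 probe sets it was 1.36 and did not pass. Slc22a5, the plasma membrane carnitine transporter, gave 8.28, 8.82 and 9.25 against 7.79, 7.73 and 8.09, a change of 0.91 ± 0.22 (adjusted p = 0.00563) with no overlap. The isomerase Eci1 gave 11.02, 11.19 and 11.41 against 11.02, 10.48 and 10.73 and changed by 0.46 ± 0.15 (adjusted p = 0.0443), though 1 treated and 1 control liver coincide to 2 decimals. The flavoprotein subunit Etfa gave 11.57, 11.55 and 11.77 against 11.97, 11.98 and 11.97, a tight and small fall of 0.35 ± 0.08 (adjusted p = 0.00323). Acot3 was not above background in any of the 6 livers, at 4.00, 4.00 and 4.00 against 5.58, 5.12 and 5.59, and no fold is given (adjusted p = 0.0419). Acot4 gave 6.93, 6.37 and 7.02 against 6.02, 6.47 and 5.78, a difference of 0.68 ± 0.24 that did not pass (adjusted p = 0.0674).

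Although few passed, 10 genes lay wholly below the controls (28.6%, against 12.4% of all genes) and 4 wholly above (11.4%, against 11.9%). As deposited these were 8 and 2 (against 10.7% and 7.9% of all genes). With a common 75th percentile they were 7 and 3 (against 11.7% and 10.9%). After quantile normalisation the 10 included Acot3 and Fgf21, neither above background in any of these livers. Fgf21 gave 4.00, 4.00 and 4.00 against 4.11, 5.16 and 4.22. They also included Cpt1a, whose other probe sets, also above background, changed by only -0.06 and -0.24. Cpt1a itself changed by -0.52 ± 0.18, and Hadha, also among the 10, by -0.46 ± 0.21. With day 4 propiconazole replicate 2 left out of the shared fit, these estimates are the same but the spread is smaller, and 5 genes were higher (against 7.23% of all genes) and 6 lower (against 8.62%), among them Hadha (adjusted p = 0.000178), Cpt1a (adjusted p = 0.0406), Acadvl (adjusted p = 0.0201) and Acads (adjusted p = 0.0236) as lower. In a fit of the conazole experiment alone 0 passed. With that array left out as well, a setting chosen after seeing the data, Vnn1, Slc22a5, Etfa, Hadha and Cpt1a passed. The share of all genes in those fits is not given, so these calls describe stability only.

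Other PPAR-alpha pathway genes moved both ways, with 4 of 30 higher and 2 lower, beside 5.29% and 5.53% of all genes. Cd36, which takes up fatty acids, gave 9.37, 7.20 and 9.29 against 6.32, 6.51 and 6.10, a change of 2.31 ± 0.51 (adjusted p = 0.00285). Aldh3a2, the fatty aldehyde dehydrogenase, gave 11.16, 11.35 and 11.55 against 9.80, 9.24 and 9.87 (1.72 ± 0.43, adjusted p = 0.00864). Neither overlapped with its controls. Ppara stayed lower, with 8.81, 8.56 and 9.17 in treated livers against 9.87 to 10.07 in controls (-1.13 ± 0.33, adjusted p = 0.0225). The other higher genes were Ech1 (0.46) and Fads1 (0.31), and the other lower one was Hsd17b4 (-0.25). Acat1 (-0.52) and Bdh1 (-0.49) of the ketone list and Pex26 (-0.59) and Pex5 (-0.28) of the peroxisome list were also lower. In these livers hepatocyte markers summed to 75805 to 78788 against 81362 to 83454 in the controls (9 of 9 above background), and the 6 periportal hepatocyte markers to 23684 to 26309 against 28007 to 30409 (6 of 6). Stellate cell markers summed to 2768 to 3196 against 4136 to 5640 and biliary markers to 721 to 824 against 447 to 589. Those 4 lists did not overlap, nor did the lymphocyte list, of which 0 of 6 markers were above background. Pericentral hepatocyte sums overlapped (20732 to 21644 against 21068 to 23334), though Axin2, Oat and Glul of that list's 8 were lower. Axin2 had a mean below background. S100a8 gave 11.95, 12.10 and 5.60 against 4.45, 4.83 and 4.86 (adjusted p = 0.0109). The neutrophil list it belongs to summed to 351 to 4905 against 395 to 517 and so overlapped, with 3 of 6 markers above background. Their part was not tested.

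The change differed between the 2 days for 4 genes, each of them higher on day 30 relative to day 4 (11.4%, against 0.711% of all genes higher and 1.24% lower). The difference of the changes was 1.95 ± 0.49 for Pex11a (adjusted p = 0.0343), 0.85 ± 0.17 for Decr1 (adjusted p = 0.00742), 0.67 ± 0.17 for Acaa1b (adjusted p = 0.0343) and 1.27 ± 0.34 for Acot4 (adjusted p = 0.0468). Pex11a on day 30 gave 10.25, 10.17 and 10.58 against 10.29, 9.64 and 9.99, so the groups overlapped there. Without replicate 2, Pex11a (1.09, adjusted p = 0.0125) and Decr1 (0.74, adjusted p = 0.0166) still passed, and Acaa1b and Acot4 did not (adjusted p = 0.0715 and 0.101). The day 4 changes of Pex11a and Decr1 depended on the probe set, as given above. The days also differ in the Actb 3′ excess given above, whose part was not tested. Between day 4 and day 30 of triadimefon 0 genes differed in limma (0.491% of all genes higher and 0.818% lower), with 5 at an unadjusted p under 0.05. Between the days of phenobarbital 0 differed (0.00564% higher and 0% lower), with 5 at an unadjusted p under 0.05.

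Triadimefon for 4 days moved few of these genes past the test. Crat rose and Crot fell, 1 of 35 each way (2.86%, against 2.10% of all genes higher and 1.65% lower). Crot, which makes medium-chain carnitine esters in peroxisomes, gave 11.74, 11.44 and 11.80 against 12.21, 12.27 and 12.25, a change of -0.58 ± 0.16 (adjusted p = 0.0383), with every treated liver below the controls. Crat, the short-chain carnitine acetyltransferase, gave 8.20, 8.44 and 8.18 against 7.47, 7.69 and 7.06, a change of 0.87 ± 0.21 (adjusted p = 0.0175). That direction depended on the probe set, since the mean of all Crat probe sets gave -0.13, and the other one above background had the opposite sign.

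In the same livers 10 genes lay wholly below the controls (28.6%, against 8.90% of all genes) and 1 above (2.86%, against 10.5%), and 28 of 35 estimates were below 0 with a median of -0.14. As deposited, where the median of all genes moved to 0.17, only 15 of 35 were below 0 and the members' median was 0.05. The arrays then did not overlap for 3 genes lower and 6 higher (against 2.77% and 25.3% of all genes). With a common 75th percentile it was 14 lower and 1 higher (against 9.83% and 9.39%), so the separation depended on scaling. The largest of those that did not pass were Fgf21 (-0.74 ± 0.50, not above background in any of the 6 livers), Pex11a (-0.68 ± 0.35) and Angptl4, which inhibits lipoprotein lipase (-0.65 ± 0.38). Pex11a gave 9.57, 9.63 and 9.68 in the treated livers, all below the lowest control at 9.95. With the day 4 propiconazole replicate 2 left out of the shared fit, Pex11a (adjusted p = 0.00965), Acads (adjusted p = 0.00495), Slc25a20 (adjusted p = 0.0468) and Acaa1a (adjusted p = 0.0483) also passed as lower, against 3.28% of all genes. Acaa1a changed by -0.54 and its other probe set, also above background, by -0.18. In limma fits of these 6 arrays or of this experiment alone 0 passed, with 8 at an unadjusted p under 0.05 in the fit of all arrays. Of the 30 other pathway genes 5 were lower: G0s2 (-1.72), Ppargc1b (-1.69), Ppara (-1.35), Txnip (-0.93) and Plin2 (-0.42), beside the 1.65% of all genes. Hepatocyte markers summed to 77535 to 79021 against 80720 to 81472 in the controls (9 of 9 above background) and biliary markers to 496 to 678 against 346 to 410 (2 of 5), without overlap. Their part in the results was not tested.

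By day 30 of triadimefon 3 of 35 genes were lower (8.57%, against 3.0% of all genes) and 0 higher (2.41% of all genes). They were the thiolase Acaa2 and both subunits of the electron transfer flavoprotein, Etfa and Etfb. Acaa2 gave 12.07, 12.37 and 12.06 against 12.67, 12.57 and 12.68 (-0.48 ± 0.10, adjusted p = 0.00319). Etfa gave 11.52, 11.72 and 11.69 against 11.97, 11.98 and 11.97 (-0.33 ± 0.08, adjusted p = 0.00997). Etfb gave 12.03, 12.15 and 12.12 against 12.36, 12.33 and 12.37 (-0.25 ± 0.08, adjusted p = 0.0459). None of the 3 overlapped with its controls, and the sizes were small, from 1.19-fold to 1.39-fold.

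Vnn1 had the largest estimate after 30 days of triadimefon, 1.66 ± 0.52, from 7.23, 7.77 and 7.89 against 5.99, 5.65 and 6.28, and did not pass (adjusted p = 0.0569), although the groups do not overlap. Acot1 (0.76 ± 0.51), Acot3 (-0.75 ± 0.46, not above background in any of the 6 livers) and Acot4 (0.74 ± 0.24) followed in size. In all, 10 genes lay wholly below the controls (28.6%, against 11.8% of all genes) and 5 above (14.3%, against 9.27%). As deposited these were 8 and 4 (against 9.8% and 7.83% of all genes). With a common 75th percentile they were 9 and 3 (against 11.3% and 8.41%). Without day 4 propiconazole replicate 2 in the shared fit 7 were lower (against 5.42% of all genes) and 2 higher (against 4.18%), adding Hadha (-0.51, adjusted p = 0.000145), Acads (-0.55, adjusted p = 0.000664), Cpt1a (-0.57, adjusted p = 0.0342) and Acadvl (-0.27, adjusted p = 0.0313) as lower, and Vnn1 (adjusted p = 0.0302) and Acot4 (adjusted p = 0.0353) as higher. The other Cpt1a probe sets, also above background, changed by -0.22 and -0.23, so its size depended on the probe set. The fit of this experiment alone passed 0. Among the other lists Hsd17b4 (-0.29) and Bdh1 (-0.64) were lower. In these livers 4 of 10 Kupffer cell and macrophage markers were higher (Marco, Timd4, Adgre1 and Csf1r), of which Marco had a mean below background. That list summed to 4664 to 14170 against 4155 to 5001 in the controls and so overlapped, with 9 of 10 above background. Neutrophil markers summed to 1736 to 2351 against 395 to 517 (3 of 6 above background), stellate cell markers to 2961 to 3530 against 4136 to 5640 (5 of 8), periportal markers to 25990 to 26732 against 28007 to 30409 (6 of 6) and pericentral markers to 23577 to 24848 against 21068 to 23334 (7 of 8), and none of these 4 lists overlapped. Their part was not tested.

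The 2 conazoles share their control livers and were fed at different levels, so the treated groups were set against each other directly, for 2 days and 35 genes. On day 4, 3 genes were lower with propiconazole than with triadimefon (8.57%, against 0.857% of all genes) and 0 higher (0.981% of all genes). The groups did not overlap for 6 genes, all lower with propiconazole (17.1%, against 3.49%), where 5.13% of all genes were wholly higher. The 3 that passed were Crat (-1.05 ± 0.21, adjusted p = 0.0105), Acaa1b (-0.55 ± 0.12, adjusted p = 0.0199) and Decr1 (-0.45 ± 0.12, adjusted p = 0.0446). The propiconazole and triadimefon livers did not overlap for these genes. Crat gave 7.45, 7.01 and 7.21 after propiconazole, below its triadimefon values given above. Decr1 gave 11.29, 11.35 and 11.36 after triadimefon, above its propiconazole values. The propiconazole change of Decr1 depended on the probe set, as given above. Without replicate 2 Crat still passed (-0.94, adjusted p = 0.0443), with the reservation on its probe sets, and Acaa1b and Decr1 did not (adjusted p = 0.118 and 0.241). The direction of the list as a whole turned with the scaling: 26 of 35 estimates were below 0 after quantile normalisation and 14 with the common 75th percentile, and as deposited 34 were, where the median of all genes moved by -0.38. Acads, for which propiconazole gave the larger fall, differed by -0.74 (-1.24 to -0.24, 95% interval) and did not pass, and without replicate 2 the difference was -0.12 ± 0.11 (adjusted p = 0.747). On day 30, 0 of 35 passed in limma (2.22% of all genes higher and 1.68% lower), with 5 at an unadjusted p under 0.05. Acads and Eci1 were wholly higher with propiconazole (against 9.59% of all genes) and Pdk4 wholly lower (against 7.61%), with a difference of -1.06 ± 0.49 (adjusted p = 0.259). The interval for Vnn1 was -0.82 to 1.30, which leaves room for a difference either way.

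Phenobarbital for 4 days changed none of the 35 genes past the test in limma (0.530% of all genes were higher and 0.147% lower). Of these, 6 had an unadjusted p under 0.05. No gene separated treated from control livers, where 2.88% of all genes did so upwards and 2.22% downwards. The median change was -0.05. The 4 largest were Fgf21 (-1.27 ± 0.39), a hormone of the fasted liver above background in 1 of 10 livers, Slc22a5 (0.60 ± 0.17), Crat (0.49 ± 0.16) and Angptl4 (-0.49 ± 0.29). The other Crat probe set above background changed by -0.61, the opposite sign. Slc22a5 gave 8.57, 8.12, 8.25, 8.47 and 8.50 against 7.38, 7.63, 7.97, 8.22 and 7.70, with 4 of 5 treated livers above the highest control (adjusted p = 0.101). It passed in the fit of the phenobarbital experiment alone (adjusted p = 0.0325) and in the fit without day 4 propiconazole replicate 2 (adjusted p = 0.0468).

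After 30 days of phenobarbital the list leaned slightly and widely downwards. Estimates were below 0 for 32 of 35 genes with a median of -0.23, against 0.00 over all genes, and 30 were below 0 under each of the other scalings. Only Crot passed the test (2.86%, against 0.0846% of all genes lower and 0.395% higher). It gave 11.47, 11.27, 11.82, 11.49 and 11.64 in the treated livers and 11.68, 12.01, 12.21, 12.18 and 12.21 in the controls, a change of -0.52 ± 0.12 (adjusted p = 0.04999), and the groups overlap, since 1 control liver at 11.68 lay within the treated range. Crot passed as well among genes above background only, without treated replicate 3, without control replicate 1 and without day 4 propiconazole replicate 2, and in no other setting tried.

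Treated and control livers did not overlap for 10 genes, all lower (28.6%, against 1.97% of all genes lower and 2.24% higher): Slc25a20, Acadvl, Acadm, Acads, Hadhb, Hadh, Acaa2, Etfdh, Eci2 and Pex11a. Acadvl gave 11.68, 11.75, 11.68, 11.80 and 11.79 against 11.97, 11.98, 11.98, 11.95 and 11.93, a change of -0.23 ± 0.18. Both groups were tight, and the gap between them was wider than the spread of either. Hadhb gave 10.87, 10.88, 10.98, 11.02 and 11.08 against 11.19, 11.23, 11.28, 11.19 and 11.42, a change of -0.30 ± 0.09. Acaa2 gave 12.28, 12.31, 12.21, 12.30 and 12.30 against 12.46, 12.53, 12.55, 12.51 and 12.46 (-0.22 ± 0.07), and Etfdh gave 10.79 to 10.93 in 4 treated livers and slightly more in the other, below every control, against 11.14, 11.23, 11.28, 11.15 and 11.10 (-0.30 ± 0.09). The differences in these 4 mitochondrial genes were small. Eci2 had the largest of the 10 changes, -0.42 ± 0.11, from 10.50, 10.54, 10.56, 10.70 and 10.75 against 10.82, 10.96, 11.23, 10.98 and 11.14. None of the 10 passed in the fit of all arrays (lowest adjusted p = 0.0853).

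**Figure D4:**
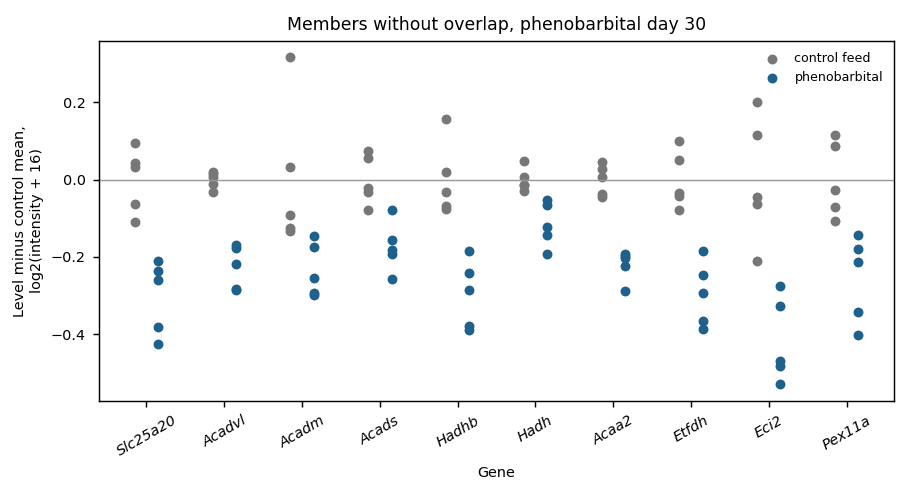
For the 10 genes whose day 30 phenobarbital livers did not overlap with their controls, points give each of 5 control (grey) and 5 treated (blue) livers as log2(intensity + 16) minus the control mean. All treated points lie below all control points of the same gene, by the least for Acads, where the values nearest each other agree to 2 decimals.

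A spread taken from the arrays compared gave more calls: 7 genes passed with those 10 arrays only (Acaa2, Acadvl, Eci2, Ehhadh, Etfdh, Hadhb and Slc25a20; 1.62% of all genes passed there) and 4 with the phenobarbital experiment only (Acaa2, Acadvl, Etfdh and Hadhb; 1.76% of all genes), and Crot in neither. The separation depended on scaling, since as deposited 0 genes and with the common 75th percentile 3 genes were without overlap (0.818% and 1.36% of all genes lower). Control replicate 5 had a summed adipocyte marker intensity of 2745, against 150 to 265 in the other 4 controls and 162 to 194 in the treated livers, with 1 of 5 measured markers above background on average. Without it 0 genes passed, but Crot also lost its call without control replicate 2, 3 or 4, or without treated replicate 1, 2, 4 or 5. Neutrophil markers summed to 353 to 874 in the treated livers and 219 to 380 in the controls, with 3 of 6 above background. The part of either list was not tested.

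**Figure D5:**
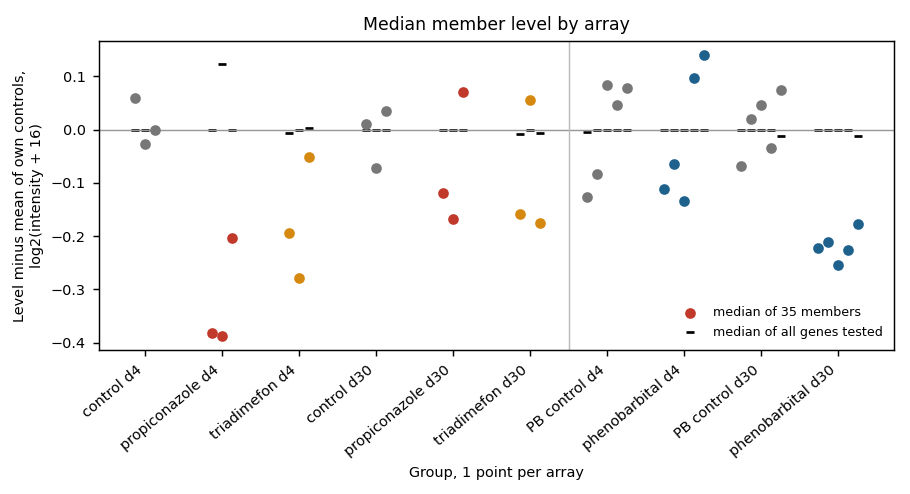
Each point is 1 array, giving the median over the 35 genes of the level minus the mean of that array's own control group, in log2(intensity + 16), and black dashes give the same over all genes tested. Grey is control feed, red propiconazole, orange triadimefon and blue phenobarbital. Day 30 phenobarbital points lie between -0.25 and -0.18 and day 4 propiconazole points between -0.39 and -0.20, while day 30 propiconazole and triadimefon points lie on both sides of 0.

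The larger estimates after 30 days of phenobarbital were those of variable genes that did not pass: Acot1 (-0.89 ± 0.39), Fgf21 (-0.75 ± 0.39, not above background in any of the 10 livers), Acot2 (-0.72 ± 0.24, likewise) and Vnn1 (-0.71 ± 0.40). Of the other PPAR-alpha pathway, ketone and peroxisome lists, 0 of 30, 0 of 3 and 0 of 12 genes passed in limma on either day of phenobarbital, with 4, 2 and 1 at an unadjusted p under 0.05 on day 30.

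The compounds of the 2 experiments were compared through the difference of their changes, since the experiment and its arrays cannot be told apart from the compound. On day 4, the change was lower with propiconazole than with phenobarbital for 2 genes: Acads by -1.35 ± 0.31 (adjusted p = 0.0242) and Decr1 by -0.64 ± 0.15 (adjusted p = 0.0270), 5.71% of the 35 against 0.863% of all genes lower and 0.970% higher. In the phenobarbital experiment Acads gave 10.35, 10.26, 10.43, 10.35 and 10.53 against 10.11, 10.09, 10.43, 10.24 and 10.35, with the groups overlapping. Without propiconazole replicate 2 Acads still differed (-0.72 ± 0.14, adjusted p = 0.00832), and Decr1 did not pass (adjusted p = 0.0932). The day 4 propiconazole change of Decr1 also depended on the probe set, as given above. On day 30, Vnn1 differed by 2.61 ± 0.66 (adjusted p = 0.0317; 2.86%, against 0.987% of all genes higher and 0.931% lower). With phenobarbital Vnn1 gave 5.60, 5.37, 5.28, 5.18 and 6.05 against 6.05, 6.16, 6.13, 5.44 and 7.26, so that none of the treated livers was above background. For triadimefon against phenobarbital 0 genes differed on either day in limma (0.0226% of all genes each way on day 4, and 0.186% higher and 0.265% lower on day 30), and without propiconazole replicate 2 in the shared fit Acads was lower on day 4 (-0.60, against 0.266% of all genes lower), and on day 30 Hadha (-0.38) and Etfb (-0.24) were lower (1.44% of all genes) and Vnn1 (2.37) higher (0.650%).

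Across the 6 comparisons with control feed 20 of the 35 genes passed in at least 1 (57.1%, against 25.4% of all genes tested), none in both directions, and 15 in none. Those 15 were Acadm and Acadl, the dehydrogenases of medium and long chains, Hadh and Hadhb, the carnitine genes Cpt2 and Slc25a20, the thioesterases Acot1, Acot2 and Acot4, the peroxisomal Acaa1a and Ehhadh, and Pdk4, Fgf21, Angptl4 and Creb3l3. Ehhadh is the bifunctional enzyme of peroxisomes that PPAR-alpha agonists are known to raise, and Pdk4 spares glucose when fat is burned. Ehhadh gave 10.13, 10.42 and 10.65 on day 4 of propiconazole against 10.72, 10.69 and 10.92 (change -0.38 ± 0.18, adjusted p = 0.168). Its treated livers lay below its controls there, without passing. Of the 23 changes that passed, 8 had another probe set above background, and in 7 of those every such probe set had the same sign, the exception being Crat. The sizes did not always match, as for Pex11a above. On day 4 of propiconazole Decr1 gave -0.51 and its other probe set -0.04. Acaa2 gave -0.43 there, and its other probe sets -0.38 and -2.02.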

How the data were processed

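RNA from 38 mouse livers was labelled with biotin and hybridised to Affymetrix mouse expression arrays, per the labels' protocols. The values the authors deposited are linear intensities, 1 for each probe set on each array, and 21.2% of them lay below 0. The summarising and scaling software was not given in the sources used here, and no further step is known. These intensities were quantile-normalised over the 38 arrays, floored at 0 and taken as log2(intensity + 16). Of 45101 probe sets, 34958 had 1 gene symbol, 932 had several and were not used, and 9211 were not listed in the annotation. The probe set with the highest mean stood for a gene, and 465 constant genes were left out. limma 3.58.1 in R 4.3.3 (lmFit and eBayes with trend) fitted 1 mean per group over all 38 arrays, and p-values were adjusted by Benjamini-Hochberg over 17729 genes. The genes named with values are the members that passed the test in a comparison with controls, the 4 members with the largest estimates in each, and up to 4 of the largest called genes of each other pathway list. Others named were chosen after their values were seen. The members and lists were chosen with earlier results of these data known. Replicate numbers did not pair the samples: over 45 pairs of same-numbered arrays in the conazole experiment the correlation of deviations was -0.12 to 0.15, and over 30 in the phenobarbital experiment -0.068 to 0.099. The test was also run on simulated data, but the outcome is not given here and lends no weight to the calls. The number of arrays limits the precision.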

Additional observations from a re-analysis of the deposited data

Results flagged for a closer look

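A sample far from the others of its group was found in 6 of 140 tests over the groups of 5, where chance gives about 1 in 20. Decr1 read 11.12 in day 30 phenobarbital control replicate 4, against 11.33 to 11.42 in the other controls. Eci2 read 10.87 in day 4 phenobarbital control replicate 1, against 11.11 to 11.17. Pdk4 read 8.00 in day 30 phenobarbital replicate 1, against 6.42 to 6.84. Fgf21 read 4.38 in day 4 phenobarbital replicate 1 and 4.08 in day 30 phenobarbital replicate 3, with the other livers of both groups at the lowest possible value of 4. Fabp1 read 13.71 in day 30 phenobarbital control replicate 5, against 13.62 in all others.

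A change that differed between days or compounds was found for 7 gene and contrast pairs by limma's test of the difference. Between day 30 and day 4 of propiconazole the differences were 0.85 for Decr1, 0.67 for Acaa1b, 1.95 for Pex11a and 1.27 for Acot4. Propiconazole minus phenobarbital on day 4 gave -1.35 for Acads and -0.64 for Decr1, and on day 30 gave 2.61 for Vnn1.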

How the results depend on the processing

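Counts of passing genes among the 35 depended on the scaling and on the arrays that set the spread, and the cause was not tested. The share of all genes that passed also changed with the setting, and it is given above for some settings only. Counts given without that share, here or above, describe how stable the calls were, and are not results about these genes. For day 4 propiconazole (12) they were 20 as deposited, 5 with a common 75th percentile, 0 with the compared arrays or the same experiment only, and 1 with the same experiment less the array with the 3′ excess, a setting chosen after seeing the data. For day 30 propiconazole (5) they were 2, 3, 2 and 0 in the first 4 of those settings. For day 4 triadimefon (2) they were 1, 1, 0 and 0. For day 30 triadimefon (3) they were 1 with compared arrays, 0 with the same experiment, 6 among genes above background and 1 with the mean of all probe sets. For day 4 phenobarbital (0) 1 passed with the same experiment. For day 30 phenobarbital (1) 7 and 4 passed with compared arrays and the same experiment, and 0 as deposited, with the 75th percentile, with pseudocounts of 4 or 64 and with all probe sets. Propiconazole minus triadimefon on day 4 (3) gave 25, 1, 0 and 0, and 1 with all probe sets, and 0 with the added setting. The 25 came from values as deposited, where the median of all genes moved the same way, as given above. The day difference of propiconazole (4) gave 1, 2, 0 and 0, 2 with all probe sets and 0 with the added setting, and that of triadimefon (0) gave 1 as deposited. Propiconazole minus phenobarbital gave on day 4 (2) 7, 1, 0 with compared arrays, 4 above background and 1 with all probe sets, and on day 30 (1) 0, 0, 2 and 0. Triadimefon minus phenobarbital on day 30 (0) gave 4 with compared arrays.

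Leaving out 1 array at a time gave 7 to 13 for day 4 propiconazole, 3 to 11 for day 30 propiconazole, 0 to 6 and 1 to 9 for triadimefon, and 0 to 1 and 0 to 2 for phenobarbital. It gave 1 to 10 and 0 to 1 for propiconazole minus triadimefon on days 4 and 30, 1 to 7, 0 to 1 and 0 to 0 for the day differences of propiconazole, triadimefon and phenobarbital, 0 to 10 and 0 to 1 for propiconazole minus phenobarbital, and 0 to 1 and 0 to 3 for triadimefon minus phenobarbital. The largest counts for propiconazole minus triadimefon on day 4 came without propiconazole replicate 1 or 3, at 10 each. With the replicate number as a replicate block the counts were 12 and 4 for propiconazole, 1 and 3 for triadimefon and 0 and 0 for phenobarbital. Same-numbered arrays share only a number. The change of Crat with day 4 triadimefon reversed to -0.13 with the mean of all probe sets. None of the 23 called changes (0) kept its call under every alternative, and 22 kept their direction. Dim genes are limited by background.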
